A study of Mus musculus with 12 samples.

Results

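The 9 genes described here encode transcription factors of sensory neurogenesis in the otic vesicle, the epithelial sac from which the inner ear and its neurons form. They were taken by name: Neurog1, Neurod1, Neurod4, Isl1, Pou4f1, Insm1, Nhlh1, Nhlh2 and Prox1, 9 of the 18194 genes that had a probe set of their own, measured by 18 of the 45101 probe sets on the array. The values are log2 levels from 12 mouse expression arrays in 6 groups of 2. Wild-type and Dlx5-null otic vesicles were dissected free of surrounding tissue at embryonic day 10 (E10) and at E10.5, staged by somite number, with 4 to 8 vesicles pooled for each array. The other arrays came from 2B1, a cell line from the otic vesicle, transiently transfected with a vector for GFP alone (empty vector) or with one that also carried Dlx5. All 4 of these cultures grew at 32 °C with gamma-interferon and were then held at 37 °C without it for 4 days. No source used here gives the mouse strain or the structure of the null allele, and a pool of whole vesicles mixes epithelium with neuroblasts and any tissue left attached. The comparisons ask how Dlx5, a homeobox gene of the dorsal otic epithelium, bears on gene expression in the early inner ear. They are those of labelled Dlx5-null with wild-type vesicles, of E10.5 with E10, and of 2B1 cells with and without transfected Dlx5.

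In the otic vesicle, neuroblasts are specified in the ventral epithelium, leave it, and gather beside it as the cochleovestibular ganglion. The basic helix-loop-helix (bHLH) factor Neurog1 commits cells to this fate and acts ahead of Neurod1, which is needed for the delamination and survival of the neuroblasts. The homeodomain factors Isl1 and Pou4f1 (Brn3a) mark the sensory neurons that follow, the zinc-finger factor Insm1 acts in progenitors that are turning into neurons, and Nhlh1 and Nhlh2 are bHLH factors of young postmitotic neurons. Neurod4 is a further neuronal bHLH factor, and Prox1 is a homeodomain factor of the sensory epithelium and of developing neurons. Dlx5 is expressed in the dorsal part of the vesicle, outside the neurogenic region.

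The stretch before the start site is shown for the 4 genes on which the results turn, because bHLH factors bind the E-box CANNTG and many homeodomain factors bind TAATTA. Each line gives the 250 bases before the start in RefSeq's table for GRCm38.p6, 5′ to 3′ on the gene's own strand, which is the minus strand for all 4, with matches to either motif in capitals.
Neurog1: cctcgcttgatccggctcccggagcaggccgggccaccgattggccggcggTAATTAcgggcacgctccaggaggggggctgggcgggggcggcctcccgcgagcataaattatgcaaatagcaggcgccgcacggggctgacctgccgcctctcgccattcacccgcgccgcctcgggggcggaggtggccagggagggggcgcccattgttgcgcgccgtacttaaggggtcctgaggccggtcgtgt
Neurod1: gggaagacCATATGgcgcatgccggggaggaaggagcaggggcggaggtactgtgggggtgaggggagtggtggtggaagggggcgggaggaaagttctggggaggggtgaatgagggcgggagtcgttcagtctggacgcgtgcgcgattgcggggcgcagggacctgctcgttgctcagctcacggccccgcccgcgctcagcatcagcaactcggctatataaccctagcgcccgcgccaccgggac
Isl1: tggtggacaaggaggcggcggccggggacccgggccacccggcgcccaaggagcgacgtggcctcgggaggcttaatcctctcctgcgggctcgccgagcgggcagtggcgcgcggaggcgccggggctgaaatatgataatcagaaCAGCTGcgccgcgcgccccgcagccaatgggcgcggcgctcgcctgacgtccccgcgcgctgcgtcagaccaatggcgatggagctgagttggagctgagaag
Pou4f1: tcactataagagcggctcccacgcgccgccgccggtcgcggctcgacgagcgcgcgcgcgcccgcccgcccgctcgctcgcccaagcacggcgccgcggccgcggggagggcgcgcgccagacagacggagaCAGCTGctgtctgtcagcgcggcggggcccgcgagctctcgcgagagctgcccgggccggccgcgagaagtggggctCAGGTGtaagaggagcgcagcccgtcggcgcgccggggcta
These windows are chr13:56252181-56252430, chr2:79456637-79456886, chr13:116309689-116309938 and chr14:104468000-104468249. The match in Neurog1 is a TAATTA that begins 199 bases before the start, a motif present in 4.84% of all 32851 windows of this length. Neurod1 has the E-box CATATG 242 bases before the start. Isl1 and Pou4f1 share the E-box CAGCTG, at 103 and 118 bases before the start, which 13% of windows hold on either strand. Pou4f1 also has CAGGTG at 41 bases. Any E-box CANNTG, which includes each of the forms named here, is found in 66.2% of windows, so most windows hold one. The Pou4f1 start used here lies inside RefSeq's span for that gene, chr14:104461675-104468118, so both of its E-boxes fall within the annotated gene, unlike the matches of the other 3. A start was listed for 8 of the 9 genes, all but Insm1. A match describes the letters and shows no binding.

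The targeted gene was read first. The Dlx5 probe set was higher in the vesicles labelled Dlx5-null than in wild-type vesicles. The log2 difference over both stages was 1.625 (SE 0.18, limma adjusted p = 0.0475). Dlx5 was thus 1 of the 3 genes with an adjusted p under 0.05 in that comparison. At E10 and E10.5 alone its limma adjusted p was 0.458 and 0.195. Its log2 level was 6.20 and 6.30 in E10 wild-type, 7.27 and 8.02 in E10 Dlx5-null, 6.12 and 6.11 in E10.5 wild-type, and 7.97 in both E10.5 Dlx5-null arrays. Where its probes lie relative to the deleted part is not given in the sources used here, so the probe set could not check the labels. Each group keeps its deposited name here, and the sign of each genotype difference depends on those names being right. In 2B1 cells it stood at 5.14 and 4.80 with Dlx5 and at 4.66 and 4.79 with empty vector. Of 14 listed otic epithelium markers, 12 passed the brightness filter in vesicles, Oc90 among them at 10.75 to 13.28, and 5 passed it in 2B1 cells. The hindbrain markers Egr2 and Olig2 stayed at 2.71 to 3.61 in vesicles, and 3 of 10 hindbrain markers passed the filter. These 3 were Pax7 at 5.12 to 6.85, Pax3 at 5.80 to 6.49 and Lhx9 at 5.45 to 5.73. Among the vesicle arrays, the spread over all probe sets was narrowest on both E10 replicate 1 arrays, with SDs of 2.32 and 2.33. E10.5 Dlx5-null replicate 2 came next, at 2.38. The E10 replicate 1 arrays also had lower Xist, 6.74 and 6.59, than the E10 replicate 2 arrays, 9.17 and 9.10. The Y-linked gene Eif2s3y read 7.04 and 3.96 in E10 wild-type, 6.50 and 6.17 in E10 Dlx5-null, 3.21 and 3.45 in E10.5 wild-type, and 4.82 and 5.04 in E10.5 Dlx5-null, so at E10.5 it was higher in the Dlx5-null pools. Its part in the genotype differences was not tested.

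Among the 9 genes, 7 were bright enough in vesicles to be tested, and Neurod4 and Prox1 were not. A gene was tested where the mean of its brightest probe set exceeded 5.19, the level under which the lowest 25% of genes lay. All tests were limma's, over 13645 genes, adjusted by Benjamini-Hochberg, and a gene passed, or was called, at an adjusted p under 0.05. All 8 vesicle arrays lay above that level for Neurog1, Neurod1, Isl1, Pou4f1, Insm1 and Nhlh1, and all but 1 did for Nhlh2.

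Neurog1, the determination factor, was highest in E10 Dlx5-null vesicles, by 1 of its 2 probe sets. Its log2 level by probe set 1438551_at was 5.65 and 6.21 in E10 wild-type, 6.62 and 6.61 in E10 Dlx5-null, 6.0 and 5.88 in E10.5 wild-type, and 5.98 and 5.90 in E10.5 Dlx5-null. Both E10 Dlx5-null arrays lay above all 6 others, which overlapped one another. The E10 difference was 0.69 on the log2 scale (SE 0.20), or 1.61-fold and did not pass (limma adjusted p = 1). It was 0.40 without both E10 replicate 1 arrays, a setting that leaves 1 array in each E10 group. The spread in the tests at each stage and between stages then comes from the E10.5 pairs alone. At E10.5 the difference was 0.00 (SE 0.20). The second probe set, 1450836_at, gave 0.09 (SE 0.20) at E10, and its correlation with the first over the 8 vesicle arrays was 0.09, so the pair did not move together.

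Neurod1, which Neurog1 turns on in ear neuroblasts, was lower at E10.5 than at E10 in both genotypes. By 1426413_at it stood at 9.57 and 9.25 in E10 wild-type, 10.31 and 9.27 in E10 Dlx5-null, 8.60 and 8.68 in E10.5 wild-type, and 9.12 and 8.96 in E10.5 Dlx5-null. Every E10 array exceeded every E10.5 array, and the highest value, in Dlx5-null replicate 1, was well above its partner. The E10.5 minus E10 difference was -0.77 (SE 0.32) in wild-type and -0.75 (SE 0.32) in Dlx5-null, and neither passed (limma adjusted p = 0.214 and 0.328). Without both E10 replicate 1 arrays, which leaves 1 array in each E10 group, they were -0.61 and -0.23. The genotype differences were 0.38 (SE 0.32) at E10 and 0.40 (SE 0.32) at E10.5, with no overlap at E10.5 only, and without both E10 replicate 1 arrays the first was 0.02. Its other probe set, 1426412_at, followed the first across arrays (r = 0.88) with a smaller stage difference in wild-type, -0.26 (SE 0.30).

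Neurod4 was near the bottom of the scale in vesicles. Its 3 probe sets ranged from 2.39 to 3.28 over the 8 arrays, and no group stood apart by its brightest probe set, 1418055_at, with 3.28 and 2.55 in E10 wild-type, 3.25 and 2.63 in E10 Dlx5-null, 2.66 and 2.67 in E10.5 wild-type and 2.74 and 2.75 in E10.5 Dlx5-null. In this probe set the 2 high arrays were the E10 replicate 1 arrays of both genotypes.

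**Figure D1:**
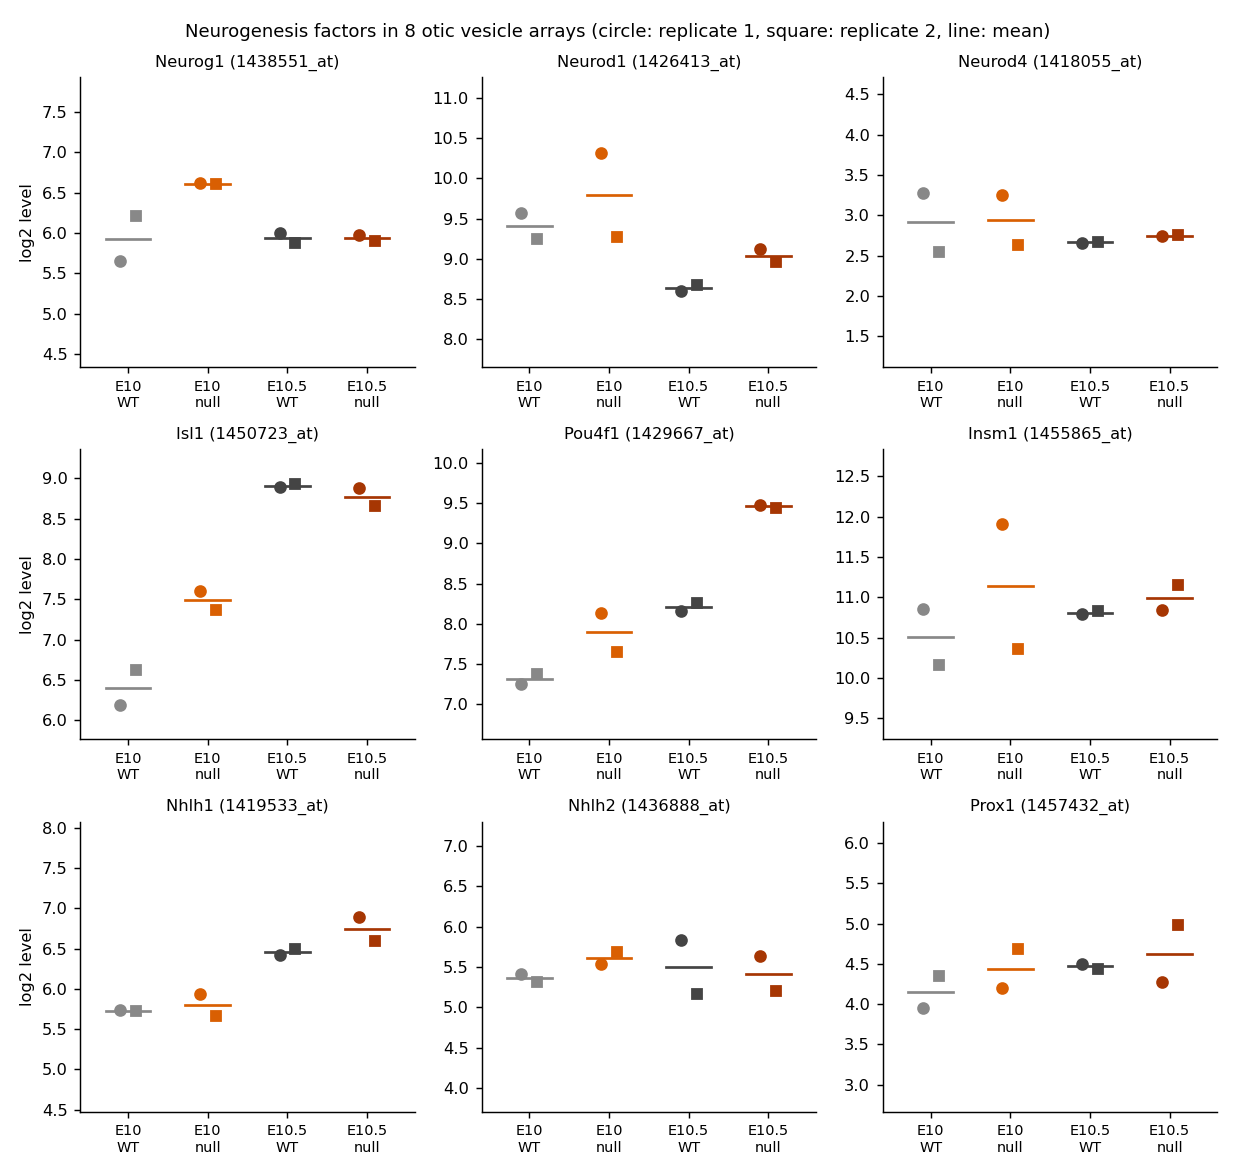
Log2 level of the brightest probe set of each of the 9 genes in the 8 vesicle arrays, with circles for replicate 1, squares for replicate 2 and a line at the mean of each group; every panel has its own axis range. Isl1, Pou4f1 and Nhlh1 sit higher at E10.5, Neurod1 sits lower, and the E10 Dlx5-null pairs of Insm1 (11.91 and 10.36) and Neurod1 (10.31 and 9.27) are split.

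Isl1, a LIM-homeodomain factor of sensory neurons, had the largest stage difference of the 7 tested members in wild-type vesicles and was the only one of them to pass adjustment in any of the vesicle comparisons. By 1450723_at its log2 level was 6.19 and 6.62 in E10 wild-type, 7.60 and 7.37 in E10 Dlx5-null, 8.89 and 8.93 in E10.5 wild-type, and 8.88 and 8.66 in E10.5 Dlx5-null. E10 wild-type lay lowest, E10 Dlx5-null next and the E10.5 arrays highest, without overlap between these levels, whereas the E10.5 groups differed by less than 1 SE. The rise in wild-type was 2.51 (SE 0.19), or 5.68-fold, and passed (limma adjusted p = 0.0190). In Dlx5-null vesicles the difference was 1.29 (SE 0.19), or 2.44-fold, and did not (adjusted p = 0.0730). It passed there with a trend in eBayes (limma adjusted p = 0.0448). Without both E10 replicate 1 arrays, with 1 array left in each E10 group, the difference in Dlx5-null vesicles was 1.40. The wild-type call was lost when any of the 4 E10.5 arrays was left out, with adjusted p of 0.311 and 0.290 without wild-type replicate 1 or 2 and 0.0585 and 0.0588 without Dlx5-null replicate 1 or 2.

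At E10, Isl1 was higher in Dlx5-null than in wild-type vesicles in both arrays, by 1.08 (SE 0.19), or 2.11-fold. It was not called among all genes (limma adjusted p = 0.471), and without both E10 replicate 1 arrays the difference was 0.75. At E10.5 the difference was -0.14 (SE 0.19). The change in the genotype difference between stages was -1.22 (SE 0.28, limma adjusted p = 1). The dimmer probe set, 1422720_at, followed the brighter one over the 8 arrays (r = 0.93), with smaller differences. These were 0.23 (SE 0.21) for genotype at E10, 0.85 (SE 0.21) for stage in wild-type and -0.26 (SE 0.29) for the change between stages. By 1422720_at the genotype groups overlapped at both stages.

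Pou4f1, the POU-homeodomain factor of sensory neurons, was the member with the smallest p in any of the genotype comparisons. By 1429667_at its log2 level was 7.25 and 7.38 in E10 wild-type, 8.14 and 7.65 in E10 Dlx5-null, 8.16 and 8.26 in E10.5 wild-type, and 9.48 and 9.44 in E10.5 Dlx5-null. At each stage both Dlx5-null arrays lay above both wild-type arrays, and the E10.5 Dlx5-null pair lay more than 1 log2 unit above every other array. E10 Dlx5-null and E10.5 wild-type were neighbours in the order and differed by less than the spread of the former. The genotype difference was 1.25 (SE 0.19), or 2.38-fold, at E10.5 (limma adjusted p = 0.373), 0.58 (SE 0.19) at E10, and 0.92 (SE 0.17), or 1.89-fold, over both stages (limma adjusted p = 0.219). None of the 3 passed adjustment. Without both E10 replicate 1 arrays, with 1 array left in each E10 group, the E10 difference was 0.27. The E10.5 difference was unaltered at 1.25.

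The second Pou4f1 probe set, 1429668_at, read 4.70 and 5.91 in E10 wild-type, 6.39 and 5.33 in E10 Dlx5-null, 6.18 and 6.20 in E10.5 wild-type, and 7.01 and 6.62 in E10.5 Dlx5-null. It was higher in both E10.5 Dlx5-null arrays as well, by 0.63 (SE 0.44), and its E10 groups overlapped. The E10.5 minus E10 difference of Pou4f1 was 0.90 (SE 0.19) in wild-type and 1.57 (SE 0.19), or 2.96-fold, in Dlx5-null, and neither passed (limma adjusted p = 0.0637 and 0.0730). Leaving out either E10 Dlx5-null array brought the wild-type stage difference past the threshold, at adjusted p of 0.0305 and 0.0308. Without both E10 replicate 1 arrays the stage differences were 0.83 and 1.81.

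Summed levels of the listed blood, periotic mesenchyme, endothelial, and epibranchial and autonomic neuron markers were also apart between the E10.5 groups. Those of the hindbrain and neural crest markers overlapped. No marker of these lists passed for genotype (limma), and at E10 the ranges overlapped for every one of these lists. The summed log2 level of the 6 blood markers tested, of 7 listed, was 60 to 60.1 in E10.5 wild-type and 67.3 to 67.5 in E10.5 Dlx5-null, against 47.6 to 53.4 and 47.5 to 53.7 at E10. For 8 of 8 periotic mesenchyme markers it was 55.8 to 56.9 in E10.5 wild-type and 53.2 to 53.6 in E10.5 Dlx5-null, and at E10 49.4 to 53.6 and 47.5 to 50. For 6 of 8 endothelial markers it was 37.4 to 37.8 in E10.5 wild-type and 35.2 to 36.9 in E10.5 Dlx5-null. For 3 of 10 hindbrain markers these were 16.8 to 17 and 16.7 to 17, and for 2 of 6 neural crest markers 16.3 to 16.4 in both. Of the 5 genes listed as epibranchial and autonomic neuron markers 3 passed the filter (Hand2, Hmx3 and Th) and Phox2a did not. Whether the Hmx3 signal came from such neurons or from the vesicle itself was not tested. At E10.5 the 3 summed to 19.2 to 19.6 in wild-type and 18.3 to 18.4 in Dlx5-null. There Th differed by -0.79 (SE 0.14), Hmx3 by -0.28 and Hand2 by 0.07, so the gap rested mainly on 1 gene, Th. The part of these lists in the Pou4f1 difference was not tested. In bulk vesicles, fewer cells of a type and less RNA per cell cannot be told apart.

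Insm1, active in progenitors as they become neurons, varied as much inside the E10 groups as between groups. Its log2 level by 1455865_at was 10.85 and 10.16 in E10 wild-type, 11.91 and 10.36 in E10 Dlx5-null, 10.79 and 10.83 in E10.5 wild-type, and 10.84 and 11.15 in E10.5 Dlx5-null. The E10 pairs overlapped, with a genotype difference of 0.63 (SE 0.47), or 0.20 without both E10 replicate 1 arrays. In both genotypes at E10, replicate 1 was the higher array. At E10.5 the difference was 0.19 (SE 0.47), and the second probe set, 1421399_at, gave 0.57 (SE 0.26) at E10 and -0.11 (SE 0.26) at E10.5.

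Nhlh1, a bHLH factor of newly born neurons, was higher at E10.5 in every array. It read 5.74 and 5.72 in E10 wild-type, 5.94 and 5.66 in E10 Dlx5-null, 6.42 and 6.50 in E10.5 wild-type, and 6.89 and 6.59 in E10.5 Dlx5-null. The stage difference was 0.73 (SE 0.17) in wild-type and 0.94 (SE 0.17) in Dlx5-null, and neither passed (limma adjusted p = 0.0803 and 0.0949). Without both E10 replicate 1 arrays, with 1 array left in each E10 group, they were 0.74 and 1.08. By genotype it differed by 0.07 (SE 0.17) at E10, where the arrays overlapped, and by 0.28 (SE 0.17) at E10.5, where they did not.

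Its relative Nhlh2 separated the genotypes at E10, by a small difference, and not at E10.5. It read 5.42 and 5.32 in E10 wild-type, 5.54 and 5.69 in E10 Dlx5-null, 5.84 and 5.17 in E10.5 wild-type, and 5.64 and 5.20 in E10.5 Dlx5-null. The E10 genotype difference was 0.25 (SE 0.25), and both E10.5 pairs were wider than any difference between group means.

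Prox1 was too dim to test as a gene, and its 3 probe sets disagreed. The brightest, 1457432_at, read 3.95 and 4.35 in E10 wild-type, 4.20 and 4.68 in E10 Dlx5-null, 4.50 and 4.44 in E10.5 wild-type, and 4.27 and 4.98 in E10.5 Dlx5-null. The others ran against it over the 8 arrays (r = -0.62 for 1421336_at and -0.80 for 1437894_at) and with each other (r = 0.84). At E10 the Dlx5-null minus wild-type difference was 0.29 by the first and -0.38 and -0.32 by the others, so the array gave no single direction for Prox1.

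**Figure D2:**
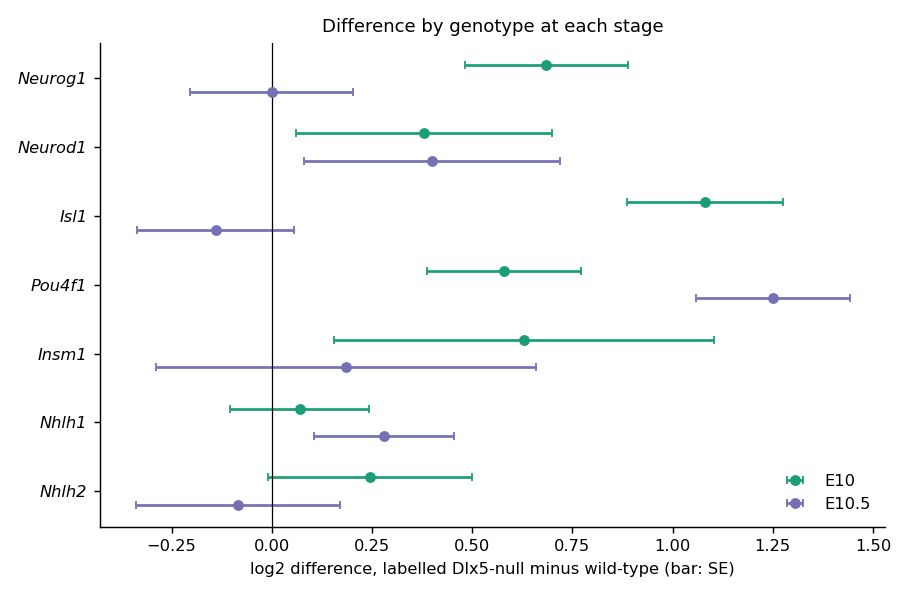
Log2 difference, labelled Dlx5-null minus wild-type, for the 7 tested genes at E10 and E10.5, with bars for limma's SE and a line at 0. Isl1 (1.08) and Neurog1 (0.69) stand to the right at E10 and near 0 at E10.5, whereas Pou4f1 is at 0.58 at E10 and 1.25 at E10.5.

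All 7 tested members had higher mean levels in Dlx5-null vesicles at E10, and none passed adjustment. At E10, 7 of 7 differences were above 0, against 50.5% of all genes, and their median was 0.58 against 0.01 for all genes. Of the 7, 3 (Isl1, Neurog1 and Pou4f1) had an unadjusted limma p under 0.05, as 3.31% of all genes did (451 genes), and 0% of all genes passed adjustment. The groups did not overlap for 4 members that were higher (Isl1, Neurog1, Nhlh2 and Pou4f1; 8.52% of all genes) and for 0 that were lower (8.93%). Much of this rested on the replicate 1 arrays. Without E10 Dlx5-null replicate 1, 4 of 7 were above 0 (57.8% of all genes), with Neurod1 at -0.14, Insm1 at -0.145 and Nhlh1 at -0.07, and the median was 0.32. Without both E10 replicate 1 arrays, 6 of 7 were above 0 (50.2%), with Nhlh1 at -0.06, and the median was 0.27. The members share arrays and are not replicates of the condition.

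At E10.5 fewer of the tested members were higher in Dlx5-null vesicles, and Pou4f1 had the largest difference. There 4 of 7 differences were above 0 (40.9% of all genes), with a median of 0.19 against -0.04, and 1 member, Pou4f1, had an unadjusted p under 0.05 (2.95%). Groups did not overlap for 4 higher members, Insm1, Neurod1, Nhlh1 and Pou4f1 (16.9%), and for 1 lower member, Isl1 (28.2%). For Insm1 the nearest arrays were 10.84 in Dlx5-null and 10.83 in wild-type, and for Isl1 8.88 and 8.89. The second Insm1 probe set, 1421399_at, separated the other way, with 7.42 and 7.33 in Dlx5-null and 7.51 and 7.45 in wild-type. Across all genes 0.00733% passed adjustment, and no member did. Over both stages 7 of 7 were above 0 (46.7%), 1 had an unadjusted p under 0.05 (4.1%), and 1, Pou4f1, had both Dlx5-null arrays above both wild-type arrays at each stage (1.97%; 0 lower, 3.24%). Here 0.022% of all genes passed, and no member.

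The difference between the genotype differences, E10.5 minus E10, had opposite signs among the members and passed for none. It was -1.22 for Isl1, -0.69 for Neurog1 (SE 0.29) and 0.67 for Pou4f1 (SE 0.27), each with a limma adjusted p of 1. Of the 7 interaction values 3 were above 0 (43.6% of all genes), and Isl1, Neurog1 and Pou4f1 had an unadjusted p under 0.05 against 1.97% of all genes (269 genes), with 0% passing adjustment.

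**Figure D3:**
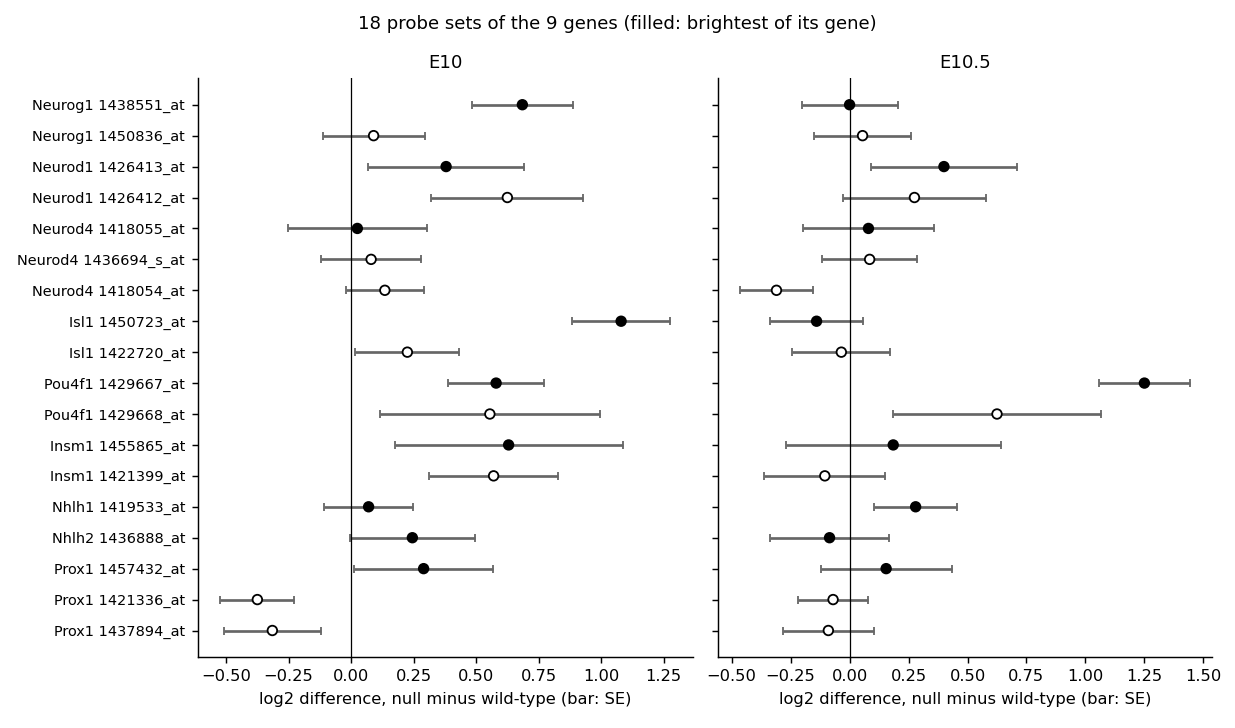
Log2 difference, labelled Dlx5-null minus wild-type, for all 18 probe sets of the 9 genes at E10 (left) and E10.5 (right), each tested singly; bars are limma's SE and filled points mark the brightest probe set of a gene. At E10 the probe sets of Neurog1 (0.69 and 0.09) and Isl1 (1.08 and 0.23) differ in size, and those of Prox1 fall on both sides of 0.

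Tested singly among all 34958 probe sets that name 1 gene, with no brightness filter, 4 of the 18 had an unadjusted p under 0.05 for genotype at E10 (3.22% of all probe sets) and 1 had at E10.5 (2.71%), and 0 passed adjustment at either stage. The brighter probe set gave the larger E10 difference for Neurog1, Isl1, Pou4f1 and Insm1, and the dimmer one for Neurod1, at 0.63 (SE 0.30).

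Across stages, the sensory neuron factors Isl1 and Pou4f1 and the young-neuron factor Nhlh1 were higher at E10.5 in every array of both genotypes, and the neuroblast factor Neurod1 was lower. In wild-type, groups did not overlap for 3 higher members (35.3% of all genes) and 1 lower member (21.6%), and in Dlx5-null for the same 3 higher members (25.7%) and for 2 lower members, Neurod1 and Neurog1 (19.3%). Unadjusted p was under 0.05 for 4 members in wild-type, Isl1, Neurod1, Nhlh1 and Pou4f1 (22.5%), and for 4 in Dlx5-null, Isl1, Neurog1, Nhlh1 and Pou4f1 (15.3%). After adjustment 1 member passed in wild-type, Isl1, among 2.17% of all genes, and 0 in Dlx5-null, where 0.022% did and 2085 genes had an unadjusted p under 0.05. Of the 7, 6 were above 0 in wild-type (55.3% of all genes) and 3 in Dlx5-null (55%). These comparisons reuse the arrays of the genotype comparisons, so the differences are not independent of one another.

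Neurog1 had a stage difference of -0.68 (SE 0.20, limma adjusted p = 0.199) in Dlx5-null and of 0.01 (SE 0.20) in wild-type. Insm1 and Nhlh2 moved by 0.31 (SE 0.47) and 0.14 (SE 0.25) in wild-type, and by -0.14 and -0.20 in Dlx5-null, each within 1 SE of 0.

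**Figure D4:**
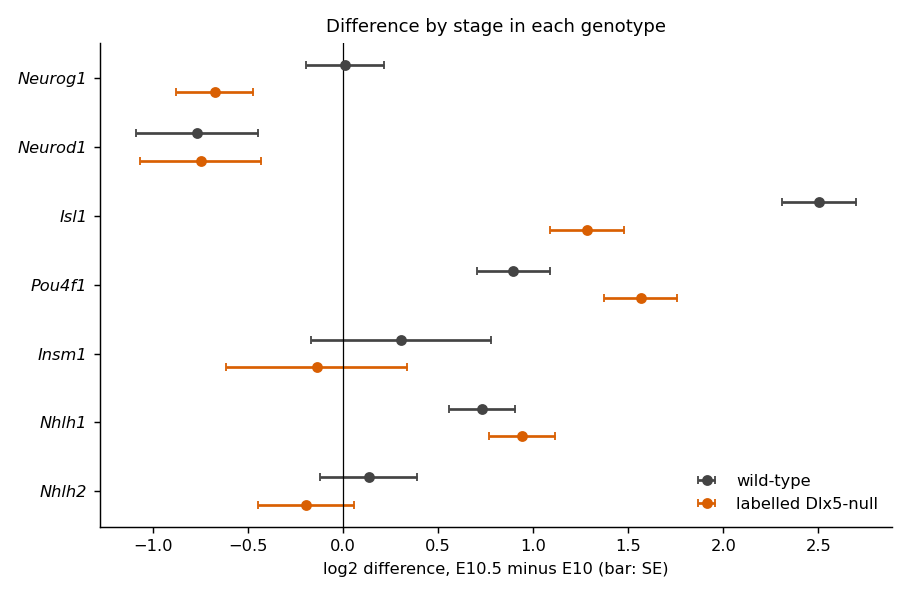
Log2 difference, E10.5 minus E10, for the 7 tested genes in wild-type and labelled Dlx5-null vesicles, with bars for limma's SE and a line at 0. Isl1, Pou4f1 and Nhlh1 lie to the right in both genotypes, Neurod1 lies to the left at -0.77 and -0.75, and the Neurog1 points are 0.69 apart.

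Genes that carry out neuronal differentiation were higher at the later stage together with Isl1. Of 18 tested of 21 listed, 16 were above 0 from E10 to E10.5 in wild-type (55.3% of all genes). Their median was 0.99 against 0.06 for all genes. After adjustment 6 higher and 1 lower passed, against 2.17% of all genes. At an unadjusted limma p under 0.05 there were 14 higher and 1 lower, against 22.5% of all genes. Nefl, a neurofilament subunit, rose by 4.16 (SE 0.66, limma adjusted p = 0.0383), Stmn2, a microtubule regulator of growing axons, by 2.87 (SE 0.42), and Tubb3, the neuronal beta-tubulin, by 2.49 (SE 0.40). Elavl2, a neuronal RNA-binding protein, fell by 2.06 (SE 0.23). Over all genes, the 296 called in this comparison became 0 to 873 when any 1 array was left out. Markers of other tissues also differed in the same comparison, not all in 1 direction. Of 8 periotic mesenchyme markers 5 were above 0 and 2 passed (Lum at 2.48 and Col1a1 at 1.17). All 6 tested endothelial markers were above 0 and 2 passed (Tie1 at 1.71 and Pecam1 at 0.99). The 6 tested blood markers were 1.02 to 2.60 higher without passing. Th, from the epibranchial and autonomic neuron list, passed at 0.845. The hindbrain marker Pax7 passed in the other direction, at -1.275, and 1 of 3 tested hindbrain markers was above 0. The part of these markers in the stage differences was not tested. In Dlx5-null vesicles 16 of the 18 neuronal differentiation genes were above 0 (55% of all genes), with a median of 0.81, and 0 passed. Of these 18, 14 had an unadjusted limma p under 0.05, against 15.3% of all genes. By genotype over both stages 0 of the 18 passed: Dcx, a microtubule protein of migrating neurons, was 0.65 higher (SE 0.10) and Elavl2 differed by -0.88 (SE 0.30).

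Genes that lie ahead of the members or compete with them showed no change past the threshold in any vesicle comparison. Of 25 listed upstream and prosensory genes 23 were tested, with a median of -0.04 for genotype over both stages. An unadjusted limma p under 0.05 was reached by 3 of them, all below 0, against 4.1% of all genes in either direction. Sox2, which maintains neurosensory progenitors, differed by -0.53 (SE 0.11, adjusted p = 0.353). Dll1, the Notch ligand of neuroblasts, differed by -1.04 (SE 0.23, adjusted p = 0.0674) between stages in wild-type. Among genes downstream of neuronal bHLH factors 16 of 20 were tested. Of these, Eya2, Btg2 and Hes6 were higher in E10 Dlx5-null, by 0.78 (SE 0.18), 0.68 (SE 0.19) and 0.58 (SE 0.22). These 3 had an unadjusted limma p under 0.05, as did 3.31% of all genes in either direction. None of the 16 passed, and their E10 median was 0.09. Of 11 tested of 17 other neural transcription factors, Lhx1, a LIM-homeodomain factor, had the largest genotype difference, 1.46 over both stages (SE 0.26, limma adjusted p = 0.172).

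Across the 8 vesicle arrays Isl1, Pou4f1 and Nhlh1 followed one another most closely, as a description over arrays that share stage and genotype. Pou4f1 and Nhlh1 correlated at r = 0.90, Isl1 and Nhlh1 at 0.89, and Isl1 and Pou4f1 at 0.79. Neurod1 correlated with Insm1 at 0.54 and with Neurog1 at 0.51, and with Isl1 at -0.59. Insm1 correlated with Neurog1 at 0.14 and with Isl1, Pou4f1 and Nhlh1 at 0.24 to 0.36, and Nhlh2 with no other member above 0.37. The genes whose log2 pattern over the 8 arrays was most like that of a member were, for Isl1, Ldb1 (r = 0.99), Ppp1r17 (0.99) and Rxrg (0.98), and, for Pou4f1, Acp5 (0.98), Cacna1e (0.96) and Ncf4 (0.96). For Nhlh1 they were Gng3, Tmem198 and Ina, each at 0.97, and for Neurog1 Pdzd3 (0.955), Slc27a2 (0.952) and St8sia3 (0.946). For Neurod1 they were Snhg14 and Aldh1l2 (0.97 each) and Wfdc15a (0.945), and for Insm1 Lce1a2 (0.97), Mmp19 (0.96) and Tmem178b (0.95). No gene came closer to Nhlh2 than Mettl15, at 0.77.

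In 2B1 cells none of the 9 genes passed the brightness filter, whose floor there was 4.85, so none was tested among the 13636 genes. Their 18 probe sets lay between 2.48 and 5.09 over the 4 arrays, on a scale that appeared to be normalized apart from that of the vesicles. Neurog1 by 1438551_at read 3.21 and 3.28 with Dlx5 and 3.47 and 3.42 with empty vector. Neurod1 by 1426413_at read 3.58 and 3.73 with Dlx5 and 3.85 and 3.97 with empty vector. In both, the Dlx5 arrays lay below the empty vector arrays.

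Isl1 by 1450723_at read 4.73 and 4.14 with Dlx5 and 4.19 and 4.25 with empty vector, and Pou4f1 by 1429667_at read 4.07 and 3.93 against 4.72 and 3.96, with overlapping groups in both. Of the 18 probe sets, 6 had both Dlx5 arrays below both empty vector arrays, 0 had them above, and 12 overlapped. Over all 34958 probe sets 19.5% had them below and 24.1% above. Tested singly among all probe sets, 0 of the 18 passed adjustment and 0 had an unadjusted limma p under 0.05. Among the 13636 tested genes 12.9% (1758) had an unadjusted p under 0.05 and 0% passed adjustment. No difference between the transfected groups was called for the members.

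**Figure D5:**
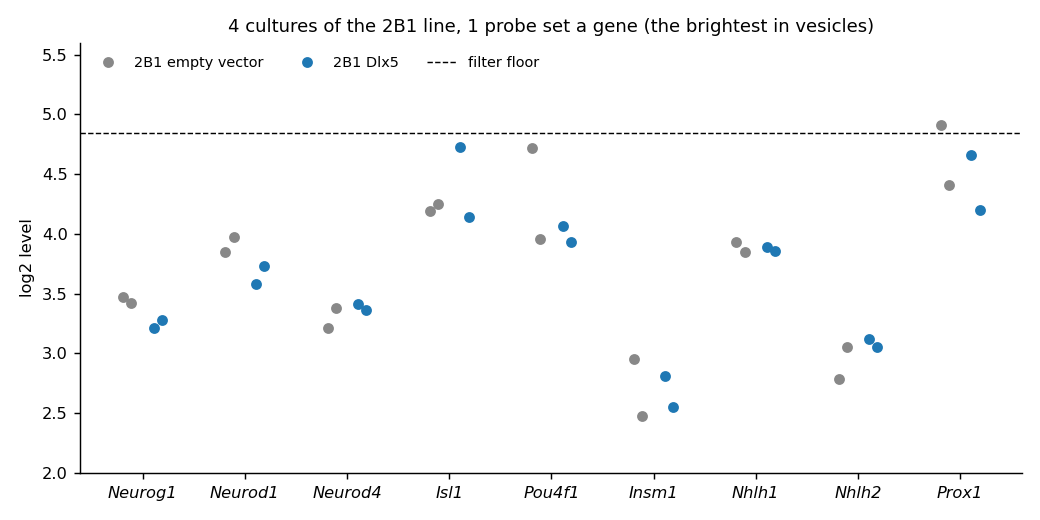
Log2 level in the 4 cultures of 2B1 cells of the probe set of each of the 9 genes that was brightest in vesicles, for empty vector and Dlx5; the dashed line is the filter floor of 4.85. All points but 1 of Prox1 lie below the line.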

How the data were processed

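RNA from 12 mouse samples (8 pools of otic vesicles and 4 cultures of 2B1 cells) was hybridised to Affymetrix arrays. The authors deposited log2 expression values for 45101 probe sets, made with RMA in Affymetrix Expression Console per the submitters' processing notes; no source used here gives their versions. Vesicle and 2B1 arrays appeared to be normalized separately, so no test or level was set across them. Array depth has no read count, and the 2 arrays in each group limit the precision.

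Probe sets were named through GEO's platform annotation with symbols updated by RefSeq identifier: 34958 named 1 gene, 932 several and 9211 none. The brightest probe set stood for a gene, the lowest 25% of genes were left out, and limma 3.58.1 in R 4.3.3 (lmFit, eBayes) tested 7 comparisons with Benjamini-Hochberg adjustment. The genotype comparison over both stages had a stage term; the other vesicle comparisons used 4 group means, and the 2B1 comparison its own 4 arrays, with 5, 4 and 2 residual degrees of freedom. The labels call the replicates biological replicates and independent cultures. The fit was run on simulated data with independent noise on each array, which lack any deviation shared between arrays.

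The members, gene lists, comparisons and alternatives were chosen with earlier results of these data known. Named list genes were those with the largest differences in a list or past the threshold, and like genes those with the highest Pearson r over 8 vesicle arrays among genes with an SD of at least 0.3. In the main tests replicate numbers are used only as names. Some alternatives use them as a block or to choose the arrays left out. Promoter windows come from RefSeq's table for GRCm38.p6. Alternatives were the mean of probe sets, probe sets tested singly, no filter, centring, eBayes with trend, a replicate block, and leaving out arrays.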

Additional observations from a re-analysis of the deposited data

Results flagged for a closer look

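The difference of Isl1 between labelled Dlx5-null and wild-type vesicles was set apart because it pointed in opposite directions at the 2 stages: both Dlx5-null arrays lay above both wild-type arrays at E10 (7.60 and 7.37 against 6.19 and 6.62) and below both at E10.5 (8.88 and 8.66 against 8.89 and 8.93). The E10.5 difference was small, -0.14 (SE 0.19), and 28.2% of all genes had such non-overlapping lower groups at E10.5. The difference between the stages was -1.22 on the log2 scale (SE 0.28, limma adjusted p = 1), and -0.89 without both E10 replicate 1 arrays. The second Isl1 probe set gave -0.26 (SE 0.29), and its genotype groups overlapped at both stages.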

How the results depend on the processing

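Counts of called genes moved with several settings. Leaving out 1 array leaves a group with 1 array, and leaving out both E10 replicate 1 arrays does so for each E10 group. In the latter setting the tests at each stage and between stages take their spread from the E10.5 pairs alone. A higher count there therefore comes with the spread of the E10 groups removed. For genotype over both stages 3 genes were called, against 9 with trend, 20 without both E10 replicate 1 arrays and 0 to 10 with any 1 array left out. At E10 the count was 0, and 18 without both E10 replicate 1 arrays, with 0 to 0 on leaving out 1 array. At E10.5 it was 1, and 0 with the mean of probe sets, 3 with centring, 2 with trend, 37 without both E10 replicate 1 arrays and 0 to 4 on leaving out 1. For the interaction it was 0, and 3 without both E10 replicate 1 arrays. For stage in wild-type it was 296, and 35 with centring, 653 with trend, 1689 without both and 0 to 873 on leaving out 1. For stage in Dlx5-null it was 3, and 0 with the mean, 25 singly, 1 with centring, 109 with trend, 288 without both and 0 to 30 on leaving out 1. For 2B1 it was 0, and 25 with trend and 0 to 11 on leaving out 1. No filter moved no count by over 1.5 times.

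Members called changed less. Over both stages the count was 0, and 0 to 1 on leaving out 1 array (Pou4f1, adjusted p = 0.0438 by limma without E10 Dlx5-null replicate 2). At E10.5 it was 0, and 1 without both E10 replicate 1 arrays. For stage in wild-type it was 1, with 4 without both and 0 to 2 on leaving out 1. For stage in Dlx5-null it was 0, with 2 with trend (Isl1 and Pou4f1) and 3 without both (Isl1, Pou4f1 and Nhlh1). Among values of single members under the alternatives, 623 kept their direction and side of the threshold, 21 passed it, 4 lost it and 24 turned. Those that turned were Nhlh1 at E10 (-0.06 without both), Neurod1 in the interaction (-0.165 with the mean and -0.02 with centring), Neurog1 for stage in wild-type (-0.27 without both) and Insm1 for stage in Dlx5-null (0.635 without both), and on leaving out 1 array Nhlh2 over both stages (-0.021 to 0.247), at E10 Neurod1 (-0.14 to 0.90), Insm1 (-0.145 to 1.405) and Nhlh1 (-0.07 to 0.21), Nhlh2 at E10.5 (-0.42 to 0.25), in the interaction Neurod1 (-0.50 to 0.54), Insm1 (-1.22 to 0.33) and Nhlh2 (-0.665 to 0.005), for stage in wild-type Neurog1 (-0.27 to 0.29), Insm1 (-0.04 to 0.65) and Nhlh2 (-0.20 to 0.47), and for stage in Dlx5-null Insm1 (-0.915 to 0.635) and Nhlh2 (-0.415 to 0.025). The cause was not tested.

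Deviations of same-numbered arrays correlated at 0.71 between the E10 genotypes, so there same-numbered arrays deviated together. Between the other pairs of vesicle groups the correlation ran from -0.48 to 0.07. The main tests had no term for the replicate number. With the replicate number as a block, the calls were 3 genes at E10.5, 115 for stage in wild-type, 0 for stage in Dlx5-null and 258 for 2B1. With the numbers as a block among the E10 arrays only, chosen after seeing the data, they were 38 over both stages, 73 at E10, 50 at E10.5, 4624 for stage in wild-type and 2967 for stage in Dlx5-null, and members called were 1 at E10.5 (Pou4f1), 4 for stage in wild-type and 5 in Dlx5-null. That block takes the difference between E10 arrays out of the spread on which the stage tests rest. In 2B1, where the numbers correlated at -0.13, the crossed pairing as a block called 20 genes.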
